A study of Mus musculus with 23 samples.

Results

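The organoids described here were grown for 13 days from KC cells, pancreatic tumor cells of a mouse of the genotype KC, which carries Cre driven from the Ptf1a locus (Ptf1a Cre/+) that acts in the pancreas. Organoids in growth factor-reduced Matrigel were compared with organoids in floating gels of rat tail type I collagen, and the comparison was made over all genes with enough counts. Labels for environment, day, genotype and batch placed 8 of the 23 bulk libraries of the series in it, 3 from Matrigel and 5 from collagen, all of the first batch. The study also sequenced KC cells in 2D culture, KC organoids in collagen at day 7, and KC and KPC organoids in collagen at day 13 in a second batch, where KPC is a second mouse tumor genotype with Pdx1 Cre/+. The 2 groups compared had the same genotype, the same serum-containing medium and the same age, and all organoids were digested with collagenase before lysis. The cells of the 2 groups came from 1 mouse. The p-values rest on a spread estimated within the 6 conditions over all 23 libraries, KPC and second-batch libraries included. It is a spread between cultures and not between animals.

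Matrigel is a reconstituted basement membrane, rich in laminin and collagen IV, while type I collagen forms the fibrils of the interstitial matrix. Epithelial cells bind laminin and fibrillar collagen through different integrins, and tension on these contacts is read by the actomyosin cytoskeleton and by the coactivators YAP and TAZ. Ductal and mucosal epithelia secrete mucins, antimicrobial proteins and chemokines, and they change this output with their state of differentiation and with inflammatory signals. The comparison asks which of these programs differ when the same tumor cells meet one matrix or the other.

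Each count stands for 1 captured RNA molecule with a unique molecular identifier (UMI), and libraries held 1612870 to 2265047 counts in Matrigel and 1844157 to 2097989 in collagen. Levels are given as CPM, counts per 1000000 counts of the library after scaling with edgeR's TMM factors, and genes were called at an adjusted p under 0.1 from edgeR's quasi-likelihood F-test. All 12 ductal epithelial markers passed the filter on low counts, with a summed level of 19595 to 21702 CPM in Matrigel and 19952 to 22383 in collagen. Of these markers 4 were called higher in Matrigel and 1 higher in collagen, or 41.7% against 12.9% of all tested genes. The summed markers of stromal cells reached at most 113 CPM, those of acinar cells at most 12.2, and the endocrine markers in the table were at 0 in all 8 libraries. Endothelial markers summed to 8.28 to 14.6 CPM in Matrigel and 3.68 to 8.63 in collagen, with Kdr and Emcn at 0 and Egfl7, the 1 tested member, called higher in Matrigel (log2 fold change 0.96, adjusted p = 0.0848), a call lost in 7 of the 8 fits that left out 1 library. The leukocyte markers summed to 32.7 to 38.8 CPM in Matrigel and 13.4 to 23.1 in collagen without overlap, but 8 of the 9 in the table, with Ptprc among them, had at most 3 counts in each of the 8 libraries, and the sum was nearly all Cd68, a lysosomal protein. Collagen replicates 4 and 5 stood apart from replicates 1 to 3, with a median absolute log2 difference of 0.240 to 0.265 between these sets against 0.178 to 0.192 among replicates 1 to 3, while Matrigel and collagen libraries differed by 0.252 to 0.316. In bulk samples fewer cells of a kind cannot be told apart from less RNA per cell.

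Of 11144 tested genes, 1439 (12.9%) were called, with 738 (6.62%) higher in Matrigel and 701 (6.29%) higher in collagen. The plot of all tested genes shows that the largest fold changes lay on the Matrigel side, where genes rose from a few CPM. The 3 Matrigel and the 5 collagen libraries did not overlap for 2177 (19.5%) of the tested genes. Among the 954 called genes of these that reached 20 CPM in the higher group, 400 were higher in Matrigel and 554 in collagen. Scaling by library size alone moved the median log2 fold change of all tested genes from −0.01 to 0.06 and called 654 genes higher in Matrigel and 300 higher in collagen, so the split by direction moved with the scaling. Without Matrigel replicate 1 the calls dropped to 901, with 467 higher in Matrigel and 434 in collagen, and without Matrigel replicate 3 the calls higher in collagen dropped to 437. With collagen replicates 1, 2 and 3 left out, 488 genes were called higher in Matrigel.

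**Figure D1:**
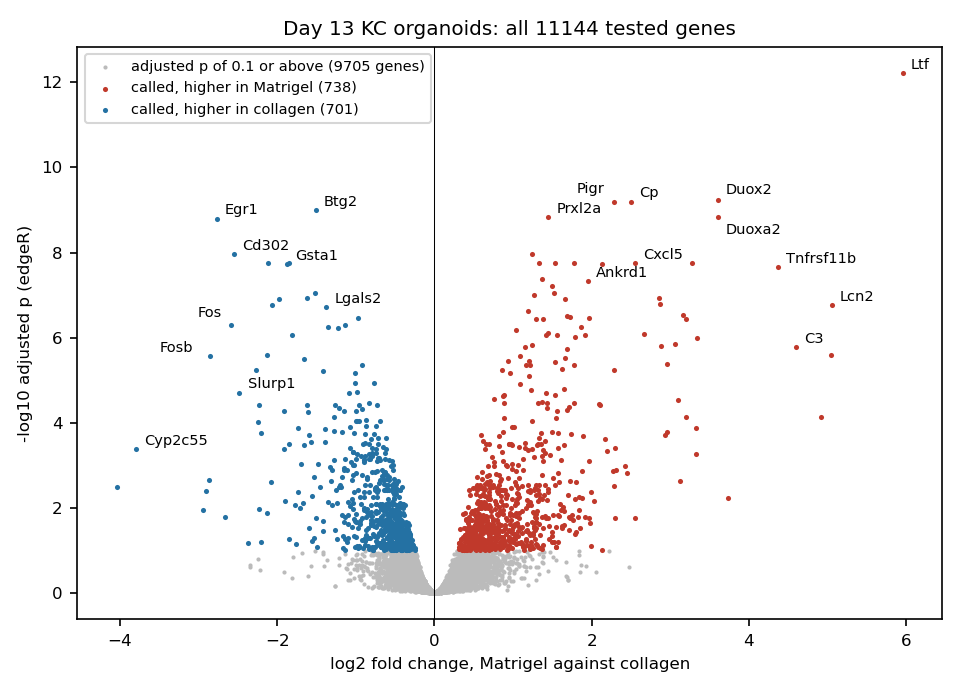
Each point is 1 of 11144 tested genes, with the log2 fold change of Matrigel against collagen on the x axis and the negative log10 of the adjusted p from edgeR on the y axis. Red points are the 738 genes called higher in Matrigel, blue points the 701 called higher in collagen and grey points the rest, and Ltf lies farthest to the upper right.

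Genes of secreted mucosal defence proteins were called higher in Matrigel wherever they could be tested. The table held 28 members of the list, of which 11 passed the filter on low counts and 17 did not, the latter at no more than 7.58 CPM in Matrigel and 3.71 CPM in collagen. All 11 tested members were called higher in Matrigel, against 6.62% of all tested genes. Their median log2 fold change was 1.96, against −0.01 over all tested genes. These calls were kept in each of the 8 fits that left out 1 library. Members close to 0 in collagen passed the filter through their Matrigel level, so neither the count nor the median speaks for the whole list, and Ltf, Lcn2, C3 and Cfb left the test when every library had to hold 10 counts. Ltf encodes lactotransferrin, an iron-binding protein of mucosal secretions. The gene lies at chromosome 9, 111019271 to 111042767 (GRCm38), and its level was 115, 120.3 and 96.2 CPM in the 3 Matrigel libraries and 2.78, 0.48, 2.39, 2.24 and 0.525 CPM in the 5 collagen libraries. Every Matrigel library lay far above every collagen library, in which Ltf rested on 1 to 6 counts (log2 fold change 5.96, SE 0.27, adjusted p = 6.05e-13). Lcn2, the siderophore-binding lipocalin, stood at 29.9, 31.4 and 40.8 CPM in Matrigel and at 0.479 to 1.85 CPM, or 1 to 4 counts, in collagen (log2 fold change 5.05, SE 0.50, adjusted p = 1.70e-07). C3, the central complement component, reached 20.1, 13.5 and 27.4 CPM in Matrigel, against 0 to 2.32 CPM in collagen, where 2 libraries had no count (log2 fold change 4.6, SE 0.55, adjusted p = 1.67e-06). The log2 fold change of C3 was 5.55 without collagen replicate 1.

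Complement was represented by more than C3. Cfb, a protease subunit of the alternative pathway, was 3.05-fold higher in Matrigel (adjusted p = 7.39e-04). Cp encodes ceruloplasmin, the copper-carrying ferroxidase, and measured 161, 153 and 175 CPM in Matrigel and 30.1, 37.4, 30.1, 27.3 and 17.9 CPM in collagen (log2 fold change 2.5, SE 0.18, adjusted p = 6.36e-10). Pigr, the receptor that carries polymeric immunoglobulin across epithelia, measured 108, 116 and 93.8 CPM in Matrigel and 23.2, 15.8, 22, 25.1 and 22.1 CPM in collagen (log2 fold change 2.29, SE 0.16, adjusted p = 6.36e-10). Neither gene overlapped between the groups. Pglyrp1, which binds bacterial peptidoglycan, was at 311 to 417 CPM in Matrigel and 102 to 181 CPM in collagen. Lbp, which binds lipopolysaccharide, was 3.43-fold higher (adjusted p = 4.34e-06), and Wfdc2, a small secreted protease inhibitor, was 1.79-fold higher (adjusted p = 0.00383).

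**Figure D2:**
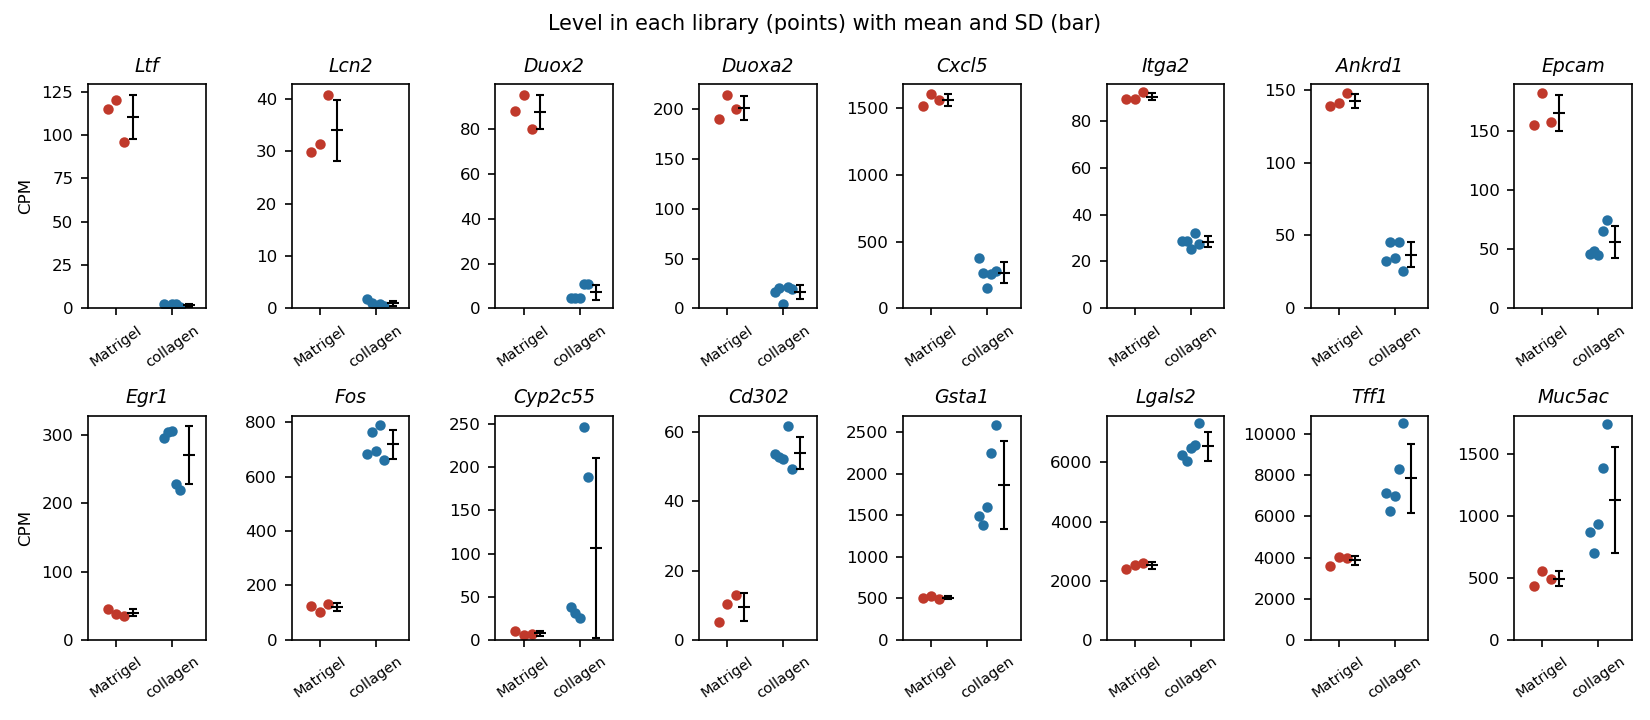
Each point is the level in 1 library in CPM (y axis, starting at 0) for 16 genes, red for 3 Matrigel and blue for 5 collagen libraries, and the black bar gives the mean and SD of each group. The groups do not overlap in any of the 16 panels. In the panels of Duox2, Epcam, Cyp2c55, Gsta1, Lgals2, Tff1 and Muc5ac the 2 highest blue points are collagen replicates 4 and 5.

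The promoters of these genes are shown because they carry the largest changes and because Duox2 and Duoxa2, described next, are neighbours that start in opposite directions. Promoters were found for 10 of 14 genes looked for, and 5 are printed. Each line gives the 250 bases before the start site on the gene's own strand, from the RefSeq promoter set of GRCm38.p6. For Ltf this start site, at 111019292, lies inside the gene position given above, which came from GENCODE. Capitals mark matches to the pattern TTNNGCAA of C/EBP factors (in Ltf, Lcn2 and C3) or to TGANTCA of AP-1 (in Duoxa2), searched on both strands.
Ltf promoter, chr9:111019042-111019291, plus strand: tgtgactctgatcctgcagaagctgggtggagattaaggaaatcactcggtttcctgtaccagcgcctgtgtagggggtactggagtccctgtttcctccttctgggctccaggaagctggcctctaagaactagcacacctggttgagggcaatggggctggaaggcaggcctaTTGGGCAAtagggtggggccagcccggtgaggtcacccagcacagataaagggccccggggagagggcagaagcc
Lcn2 promoter, chr2:32387740-32387989, minus strand: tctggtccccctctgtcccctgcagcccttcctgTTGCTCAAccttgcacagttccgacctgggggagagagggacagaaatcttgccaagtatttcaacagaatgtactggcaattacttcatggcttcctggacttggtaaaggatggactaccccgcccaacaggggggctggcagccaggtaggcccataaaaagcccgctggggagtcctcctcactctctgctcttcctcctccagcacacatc
C3 promoter, chr17:57228137-57228386, minus strand: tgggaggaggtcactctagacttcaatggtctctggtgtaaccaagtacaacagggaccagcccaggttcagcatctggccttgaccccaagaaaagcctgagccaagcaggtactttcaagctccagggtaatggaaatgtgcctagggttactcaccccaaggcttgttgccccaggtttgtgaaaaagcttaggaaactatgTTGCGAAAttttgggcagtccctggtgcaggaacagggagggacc
Duox2 promoter, chr2:122298228-122298477, minus strand: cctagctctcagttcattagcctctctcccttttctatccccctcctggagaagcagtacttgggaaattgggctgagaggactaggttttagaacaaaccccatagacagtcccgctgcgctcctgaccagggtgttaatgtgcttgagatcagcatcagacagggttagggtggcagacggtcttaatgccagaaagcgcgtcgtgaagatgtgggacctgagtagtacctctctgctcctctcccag
Duoxa2 promoter, chr2:122298650-122298899, plus strand: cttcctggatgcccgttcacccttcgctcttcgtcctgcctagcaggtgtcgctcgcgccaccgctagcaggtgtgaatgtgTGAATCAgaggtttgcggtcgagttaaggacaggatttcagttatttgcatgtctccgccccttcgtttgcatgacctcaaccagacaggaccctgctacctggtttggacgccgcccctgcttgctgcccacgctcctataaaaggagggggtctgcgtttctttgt
The C/EBP matches of Lcn2 and C3 read on the opposite strand. This pattern was present in 10.8% of all 32851 promoters of 300 bases in the set and in 8.40% of those of tested genes, against 9.69% for genes called higher in Matrigel and 12% for genes called higher in collagen. AP-1's pattern was present in 7.81% of all promoters, in 5.33% of those of tested genes, and in 8.10% and 4.49% of those of genes higher in Matrigel and in collagen. Searches were also made for STAT (TTCNNNGAA), for the cyclic AMP response element (TGACGTCA), for the NF-kB consensus and for the SRF CArG box. The NF-kB consensus was present in 4.51% of all promoters, in 5.24% of those of tested genes, in 8.50% of those of genes higher in Matrigel and in 4.92% of those higher in collagen. These shares were not tested against each other. None of these 4 patterns was found in the 5 promoters shown. Such matches describe letters and are not evidence of binding.

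Genes of the superoxide- and peroxide-producing NADPH oxidases were higher in Matrigel in 4 of 7 tested members and higher in collagen in 1, a call lost with scaling by library size alone. Over all tested genes 6.62% were called higher in Matrigel and 6.29% higher in collagen. Duox2, the dual oxidase of mucosal surfaces, measured 88.1, 95.0 and 79.8 CPM in Matrigel and 4.64, 4.8, 4.79, 10.7 and 11 CPM in collagen. The Matrigel libraries lay far above the highest collagen library, and the 2 highest collagen levels belonged to replicates 4 and 5 (log2 fold change 3.60, SE 0.25, adjusted p = 5.98e-10). Duoxa2, its maturation factor, measured 189.6, 214 and 199.9 CPM in Matrigel and 16.7, 20.6, 4.79, 21.0 and 19.4 CPM in collagen (log2 fold change 3.60, SE 0.27, adjusted p = 1.49e-09). Both genes lie on chromosome 2 with start sites 673 bases apart. Nox1, an epithelial oxidase, was at 7.41 to 9.91 CPM against 0.464 to 2.69 CPM (log2 fold change 2.93, or 3.67 without collagen replicate 4), and Noxo1, its organizer subunit, was 2.29-fold higher (adjusted p = 0.00836). Both left the test when every library had to hold 10 counts. Members low in collagen can pass the filter through their Matrigel level, so this list's count does not speak for the whole list. The same limit holds for lists below with Csf1, Lama3, Ltbp2, St14, Bmp4, Gpx2, Stra6, Muc4, Kcnq1, Cldn6, Wnt7b, Mycn or Adm. These genes also left that test, as did Slc26a6, which was higher in collagen. Cyba, the shared membrane subunit p22phox, measured 258 to 363 CPM in Matrigel and 224 to 241 CPM in collagen and did not pass the test (adjusted p = 0.56).

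Chemokine and cytokine genes were called on the Matrigel side alone. Among chemokines 6 of 11 tested members (54.5%) were called, all higher in Matrigel, against 6.62% of all tested genes. The median over the list was 1.04, and 3 of the calls were kept whichever library was left out. Counts of the lists that follow are to be read beside the 6.62% of all tested genes called higher in Matrigel and the 6.29% called higher in collagen. Cxcl5, which attracts neutrophils, measured 1515, 1606 and 1561 CPM in Matrigel and 379, 262, 156, 259 and 280.0 CPM in collagen, without overlap (log2 fold change 2.55, SE 0.22, adjusted p = 1.74e-08). Cxcl16, a membrane-bound chemokine, measured 118 to 134 CPM against 30.5 to 46.4 CPM (log2 fold change 1.73, SE 0.18, adjusted p = 3.34e-07). Ccl20, which recruits cells with the receptor CCR6, measured 160.1 to 201 CPM against 56 to 84.4 CPM (log2 fold change 1.31, SE 0.19, adjusted p = 3.50e-05). Among cytokines and growth factors of inflammation 5 of 12 were called, all higher in Matrigel, and 3 calls were kept with each library left out. Il1a, an alarmin of epithelia, was 2.02-fold higher (adjusted p = 1.23e-04), and Csf1, the growth factor of macrophages, was 2.41-fold higher (adjusted p = 0.00383).

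Feedback and target genes of NF-kB, the main transcription factor of innate responses, showed a mixed picture with more calls on the Matrigel side. Of 28 tested members 10 were higher in Matrigel and 2 higher in collagen, with a median of 0.28, and 8 calls for Matrigel were kept in the 8 fits with 1 library left out. Tnfaip2, a tumor necrosis factor-induced gene, was at 361 to 388 CPM against 129.8 to 173 CPM (log2 fold change 1.34, SE 0.12, adjusted p = 1.74e-08). Cd14, a coreceptor for lipopolysaccharide, was 2.37-fold higher, Tnip3, an inhibitor of NF-kB signaling, 4.30-fold higher, and Tnfaip3, the deubiquitinase A20, 2.10-fold higher (adjusted p = 1.49e-06, 3.71e-05 and 0.00194). Icam1, the adhesion molecule for leukocytes, was 1.80-fold higher (adjusted p = 0.007). Among acute-phase genes of STAT3 7 of 16 were higher in Matrigel and 2 higher in collagen (4 and 2 kept with each library left out). Cebpd, a C/EBP factor of the acute phase, was 2.23-fold higher in Matrigel (adjusted p = 4.48e-06), while Socs3, the feedback inhibitor of this pathway, was 1.66-fold higher in collagen (adjusted p = 3.71e-05).

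Genes induced by interferons were called about as often as all tested genes. Of 29 tested interferon-stimulated genes 3 were called for Matrigel and 1 for collagen, which is 13.8% against 12.9%, the list's median was 0.06, and none of these 4 calls was kept when each library was left out in turn. For the class I pathway of antigen presentation 1 of 16 genes was called, Tap2, a subunit of the peptide transporter, which was 2.56-fold higher in Matrigel (adjusted p = 1.73e-04). B2m, the light chain of class I molecules, measured 440.0 to 504 CPM in Matrigel and 466 to 513 CPM in collagen (log2 fold change −0.04, SE 0.12, adjusted p = 0.893).

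**Figure D3:**
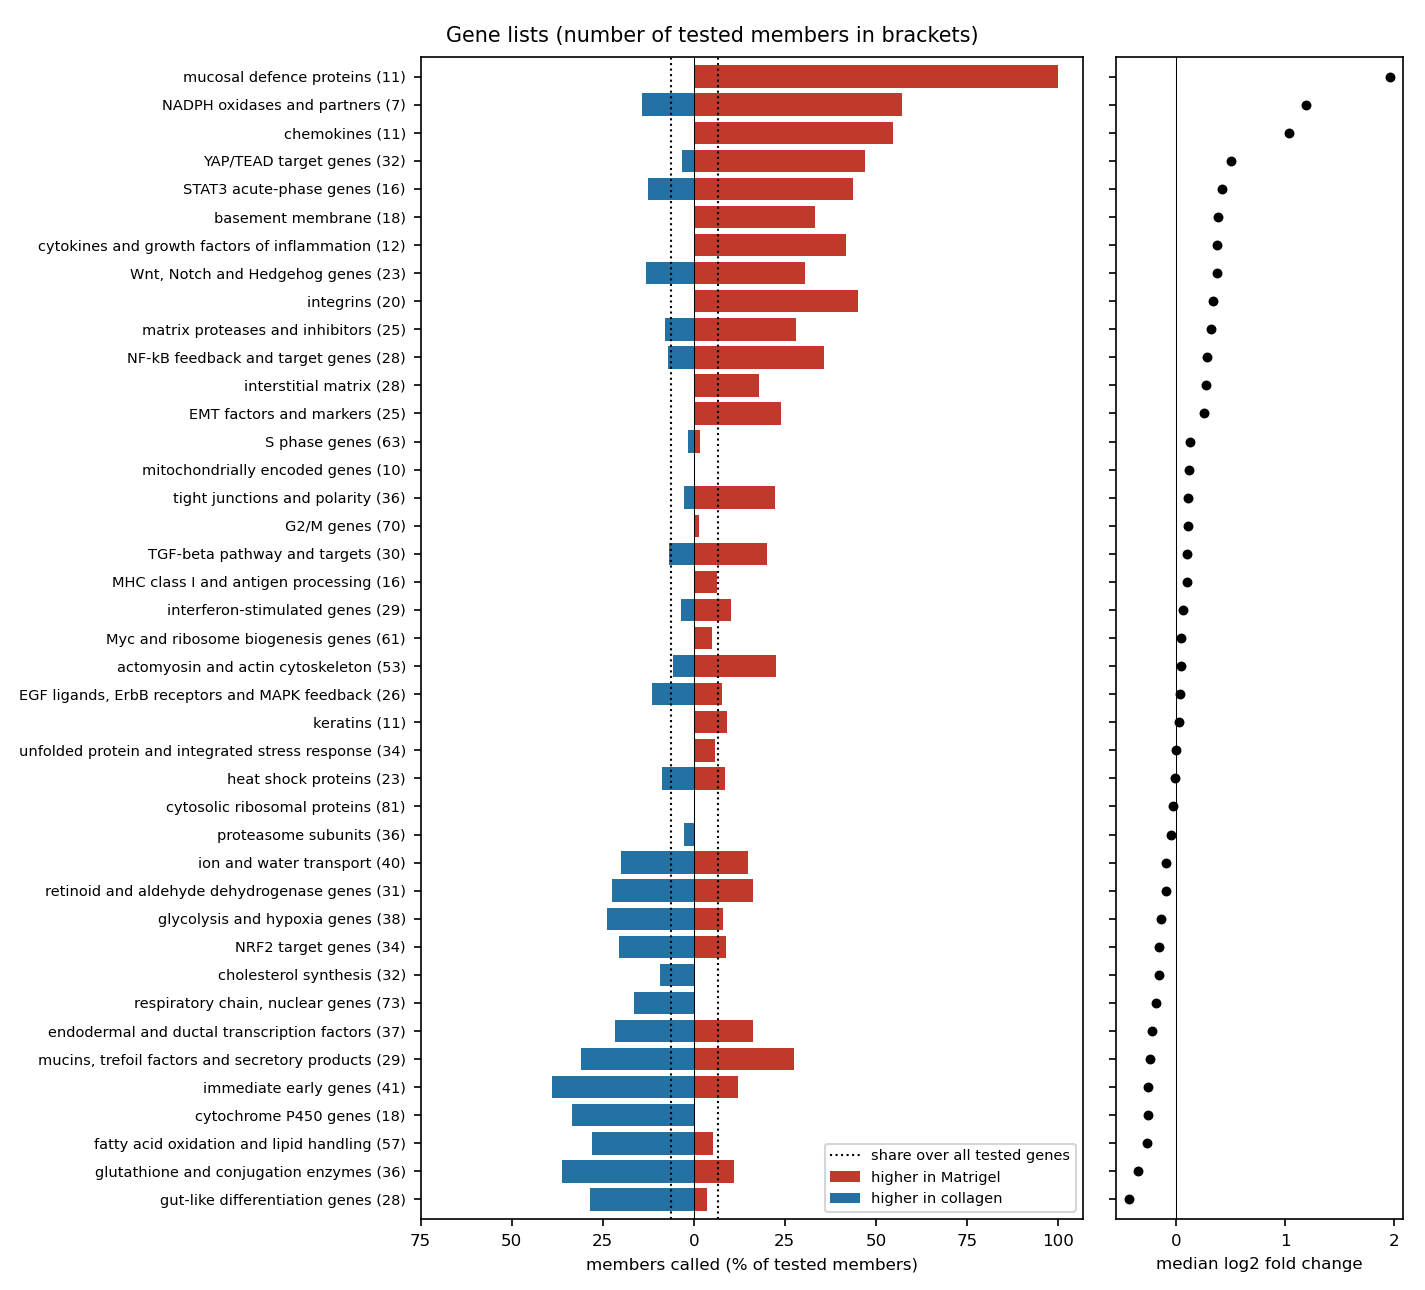
Left, the percentage of tested members called higher in Matrigel (red, to the right) or in collagen (blue, to the left) for 41 gene lists, with the number of tested members in brackets and dotted lines at the 6.62% and 6.29% of all tested genes. Right, each list's median log2 fold change, from 1.96 for mucosal defence proteins at the top to −0.43 for gut-like differentiation genes at the bottom.

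Receptors for the matrix and components of the basement membrane were another group on the Matrigel side. Levels also varied between libraries with transcript length, a trend that followed the groups only in part. Within a library the deviation from the mean of the 8 libraries was related to transcript length, with a Spearman rho across 10998 genes of 0.213, 0.193 and 0.026 in the Matrigel libraries and of −0.264, −0.249, −0.136, 0.148 and 0.044 in the collagen libraries. The log2 fold change had a median of 0.17 over the longest 10% of these genes and of −0.05 over the shortest 10%. The plot of deviation by transcript length shows this tilt for each library. With the trend removed from each library 1509 genes were called, 1269 of the original calls were kept in the same direction, and each called gene named here was still called.

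**Figure D4:**
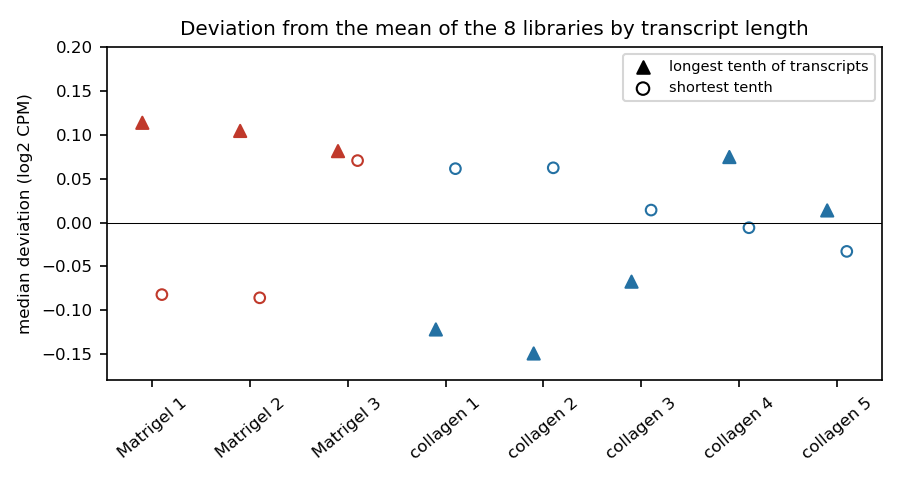
The y axis gives the median deviation in log2 CPM from the mean of the 8 libraries, for the longest 10% of transcripts (triangles) and the shortest 10% (open circles), with 1 pair of symbols per library, red for Matrigel and blue for collagen. Triangles lie above 0 in all 3 Matrigel libraries and below 0 in collagen replicates 1, 2 and 3, while collagen replicates 4 and 5 have triangles above 0.

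Integrins and other adhesion receptors were called higher in Matrigel in 9 of 20 tested members, the only calls of the list, with a median of 0.34. After removal of the trend with length the count was 8 and the median 0.33, and 5 calls were kept with each library left out. Itga2, the alpha subunit of a collagen receptor, measured 89.3, 89.4 and 92.1 CPM in Matrigel and 28.7, 28.8, 25.4, 32.2 and 27.3 CPM in collagen, so RNA of this receptor chain was lower in the collagen gels without overlap (log2 fold change 1.66, SE 0.17, adjusted p = 1.22e-07). In the second-batch KC organoids in collagen it measured 65.6 to 85.8 CPM, still below the 3 Matrigel libraries but above the 5 collagen libraries of the first batch. Cd44, a receptor for hyaluronan, measured 323 to 385 CPM against 178 to 203 CPM (log2 fold change 0.85, SE 0.11, adjusted p = 5.89e-06). Itgb6, which pairs with the alpha v chain, was 2.5-fold higher and Bcam, a receptor for laminin alpha 5 chains, 1.55-fold higher (adjusted p = 2.25e-04 and 0.00383).

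Of 18 basement membrane genes 6 were called, all higher in Matrigel, with a median of 0.39 that fell to 0.23 once the trend with length was removed, while the count was again 6, and 4 calls were kept with each library left out. Lama3, a laminin chain of epithelial anchoring, was at 16.1, 12.6 and 13.4 CPM in Matrigel and at 0.464 to 3.68 CPM in collagen (log2 fold change 3.06, SE 0.36, adjusted p = 1.44e-06). Lamb1 and Lama5, chains of other laminins, were 1.98-fold and 1.77-fold higher (adjusted p = 3.35e-04 and 3.44e-04). Col4a1, a chain of collagen IV, measured 67.0 to 77.5 CPM against 65.7 to 77.8 CPM (adjusted p = 0.957). Interstitial matrix genes were called higher in Matrigel in 5 of 28 (17.9%, against 6.62% of all tested genes), with 2 of these kept with each library left out. Ecm1, a secreted matrix glycoprotein, measured 355 to 482 CPM against 133 to 202 CPM (log2 fold change 1.29, SE 0.14, adjusted p = 3.55e-07). Ltbp2, a latent TGF-beta binding protein family member of microfibrils, was 8.58-fold higher, at 9.91 to 11 CPM against 0 to 2.32 CPM (adjusted p = 2.92e-05). Markers of parietal endoderm, which the tumor that Matrigel is made from resembles, were called higher in Matrigel in 1 of 9 genes (Plat) and higher in collagen in 1, with summed levels of 519 to 546 CPM in Matrigel and 503 to 537 CPM in collagen.

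Proteases that act on the matrix and their inhibitors were higher in Matrigel in 7 of 25 tested members and higher in collagen in 2 (4 and 1 kept with each library left out). Plat, tissue plasminogen activator, measured 96.8, 102 and 129 CPM in Matrigel and 42.2, 41.2, 37.3, 32.7 and 39.4 CPM in collagen (log2 fold change 1.5, SE 0.14, adjusted p = 6.27e-08). St14, the membrane serine protease matriptase, was 9.22-fold higher, at 18.1 to 22.4 CPM against 0.48 to 4.73 CPM (adjusted p = 3.55e-07). Ctsb, the lysosomal cathepsin B, was higher in collagen (1.32-fold, adjusted p = 0.0131), a call that scaling by library size alone did not give.

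YAP/TEAD target genes, a readout of mechanical and contact signals, were higher in Matrigel in 15 of 32 tested members and higher in collagen in 1. Their median was 0.51, it was 0.47 without the trend with length, and 12 of the calls for Matrigel were kept with each library left out. Ankrd1, a classical target, measured 138, 141 and 147 CPM in Matrigel and 32.5, 45.6, 34.5, 45.2 and 25.7 CPM in collagen (log2 fold change 1.95, SE 0.18, adjusted p = 4.69e-08). Ccn2, the gene of connective tissue growth factor, measured 71.6, 65.0 and 84.5 CPM and 19.9, 24.5, 17.2, 19.7 and 11.6 CPM (log2 fold change 1.97, SE 0.21, adjusted p = 3.47e-07). Neither of these targets overlapped between the groups. F3, the gene of tissue factor, was 2.05-fold higher, Ly6a, a marker of fetal-like gut epithelium, 2.70-fold higher, and Clu, a secreted chaperone, 1.62-fold higher (adjusted p = 6.45e-07, 4.58e-05 and 3.10e-04). Anxa3, another member, measured 727 to 771 CPM and 666 to 795 CPM and was not called (adjusted p = 0.999).

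The actomyosin list had 12 members higher in Matrigel and 3 higher in collagen of 53 tested (6 and 2 kept with each library left out), with a median of 0.05. With scaling by library size alone the calls for collagen in the actomyosin, NF-kB and protease lists were all lost. Flna, the actin cross-linker filamin A, was 1.53-fold higher, Actn1, the actin-bundling alpha-actinin of focal adhesions, 1.84-fold higher, and Msn, which ties actin to the membrane, 1.85-fold higher in Matrigel (adjusted p = 0.00482, 1.63e-04 and 3.50e-05). In the TGF-beta pathway 6 of 30 genes were higher in Matrigel and 2 in collagen, and all of these calls were kept with each library left out. Pmepa1, a feedback inhibitor induced by TGF-beta, measured 204 to 219 CPM against 74.1 to 107 CPM (log2 fold change 1.24, SE 0.11, adjusted p = 1.06e-08), and Bmp4, a ligand of the family, was 3.00-fold higher (adjusted p = 0.0025). The BMP targets Id1 and Id3, inhibitors of helix-loop-helix factors, went the other way and were 1.95-fold and 2.00-fold higher in collagen (adjusted p = 9.20e-05 and 0.00155).

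Immediate early genes, which are transcribed within minutes of a growth factor or stress signal, were called mainly on the collagen side. Of 41 tested members 16 were higher in collagen and 5 higher in Matrigel, and 15 of the calls for collagen were kept with each library left out. Egr1, a zinc finger factor of this class, measured 45.2, 37.9 and 35.5 CPM in Matrigel and 296, 305, 306, 229 and 220.1 CPM in collagen (log2 fold change −2.77, SE 0.21, adjusted p = 1.59e-09). Fos, the AP-1 subunit, measured 126, 104 and 131 CPM and 685, 763, 694, 789 and 661 CPM (log2 fold change −2.58, SE 0.28, adjusted p = 5.10e-07). In both genes the lowest collagen library lay far above the highest Matrigel library. Fosb, its paralog, was 7.24-fold higher in collagen, Atf3, a stress-induced factor, 4.69-fold higher, and Nr4a1, an orphan nuclear receptor, 3.34-fold higher (adjusted p = 2.76e-06, 3.85e-05 and 1.31e-04).

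Other members of this list were also higher in collagen. Dusp1, a phosphatase of MAP kinases, measured 48.4, 50.1 and 48.4 CPM in Matrigel and 213, 224, 229, 180.5 and 177 CPM in collagen (log2 fold change −2.06, SE 0.21, adjusted p = 1.70e-07). Zfp36, which marks inflammatory mRNAs for decay, measured 39.0, 41.4 and 39.6 CPM and 193, 197, 204, 143 and 130.3 CPM (log2 fold change −2.12, SE 0.19, adjusted p = 1.74e-08), and Btg2, an antiproliferative gene, 170.2 to 202 CPM and 477 to 569.9 CPM (log2 fold change −1.51, SE 0.11, adjusted p = 9.90e-10). Ier2 was 3.08-fold higher in collagen (adjusted p = 1.20e-07). Among the calls on the Matrigel side was Ccn2, which is also a YAP target and is given above. Klf6, a factor of the same class, measured 269 to 300.4 CPM and 275 to 414 CPM and was not called (adjusted p = 0.392). Heat shock genes, chaperones of the stress response, had 2 calls for Matrigel and 2 for collagen of 23 tested, or 17.4% against 12.9% of all tested genes. With scaling by library size alone the calls for Matrigel and collagen were 0 and 1. Dnajb1, a cochaperone, was 1.62-fold higher in collagen (adjusted p = 8.93e-05), and Hspa8, the constitutive chaperone, measured 774 to 805 CPM in Matrigel and 579 to 893 CPM in collagen (adjusted p = 0.781). In the unfolded protein and integrated stress response 2 of 34 genes were called, both higher in Matrigel, and Hspa5, the chaperone BiP, measured 645 to 737 CPM and 558 to 767 CPM (adjusted p = 0.919).

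Some enzymes that oxidize and conjugate lipophilic compounds were higher in collagen. Of 18 cytochrome P450 genes and partners 6 were called, all higher in collagen, with a median of −0.26, and 4 of the calls were kept with each library left out. Cyp2c55, a gut P450 of the CYP2C family, measured 10.2, 5.23 and 6.99 CPM in Matrigel and 38.5, 31.2, 25.4, 247 and 189 CPM in collagen. The gene lies at chromosome 19, 39007019 to 39042693. The groups did not overlap, but collagen replicates 4 and 5 lay far above the other collagen libraries (log2 fold change −3.79, SE 0.68, adjusted p = 4.17e-04), and without replicate 4 the log2 fold change was −3.19. Cyp4f14, an omega-hydroxylase of fatty acids and leukotrienes, had no such split and measured 17.3, 23.1 and 31.5 CPM and 79.7, 87.8, 96.7, 107 and 93.0 CPM (log2 fold change −1.98, SE 0.20, adjusted p = 1.22e-07). Cyp2s1 and Cyp2c65 were 2.01-fold and 2.22-fold higher in collagen (adjusted p = 6.93e-06 and 5.38e-05). Por, the reductase that serves these enzymes, measured 126 to 132 CPM and 136 to 192 CPM and was not called (adjusted p = 0.342).

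Glutathione and conjugation enzymes had 13 members higher in collagen and 4 higher in Matrigel of 36 tested (9 and 2 kept with each library left out), with a median of −0.35. With scaling by library size alone 7 were higher in collagen and 4 in Matrigel. Gsta1, a glutathione transferase of the alpha class, measured 500.4, 528 and 494 CPM in Matrigel and 1491, 1384, 1599.8, 2253 and 2589 CPM in collagen (log2 fold change −1.88, SE 0.17, adjusted p = 1.87e-08). Gm3776, a near-identical copy, followed it at 532 to 613 CPM and 1546 to 2824 CPM, and counts may have been split between the pair. Gsta4 was 1.52-fold higher in collagen, Mgst3, a microsomal transferase, 1.45-fold higher, and Ugt2b34, a glucuronosyltransferase, 1.95-fold higher (adjusted p = 0.00172, 0.00433 and 3.85e-05). Gpx2, the peroxidase of gut epithelium, was an exception at 7.48 to 11.7 CPM in Matrigel and 0.525 to 3.83 CPM in collagen (log2 fold change 2.31, SE 0.45, adjusted p = 0.00125). Among targets of NRF2, the factor of the antioxidant response, 7 of 34 were higher in collagen and 3 in Matrigel, while scaling by library size alone left 1 and 2 calls, and 2 and 1 were kept with each library left out. Nqo1, a classical target, was 2.39-fold higher in collagen (adjusted p = 3.91e-05).

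Genes of lipid and retinoid handling were called in both directions. In the list of fatty acid oxidation and lipid handling 16 of 57 genes were higher in collagen and 3 in Matrigel (8 and 1 kept with each library left out), with a median of −0.26, and with scaling by library size alone 6 were higher in collagen. Fabp1 and Fabp2, fatty acid-binding proteins of enterocytes, were 3.17-fold and 3.59-fold higher in collagen (adjusted p = 3.09e-06 and 3.10e-04), and Slc25a20, the carnitine carrier of mitochondria, was 2.25-fold higher (adjusted p = 1.60e-04). Plin2, a coat protein of lipid droplets, was 1.51-fold higher in Matrigel (adjusted p = 1.91e-04). Retinoid and aldehyde dehydrogenase genes split, with 5 higher in Matrigel and 7 higher in collagen of 31, or 4 in collagen with scaling by library size alone. On the Matrigel side were Aldh1a3, which makes retinoic acid, at 95.6, 91.6 and 101 CPM against 30.1, 22.1, 20.1, 40.3 and 26.8 CPM (log2 fold change 1.78, SE 0.16, adjusted p = 1.74e-08), Rdh10, the retinol dehydrogenase upstream of it, at 511 to 570.2 CPM against 256 to 291 CPM (log2 fold change 0.94, SE 0.12, adjusted p = 3.58e-06), and Stra6, the receptor for retinol-binding protein, 7.75-fold higher (adjusted p = 4.24e-06). On the collagen side were Rbp2, an intestinal retinol-binding protein, 1.82-fold higher, and Adh1, an alcohol dehydrogenase, 2.75-fold higher (adjusted p = 0.00214 and 0.00319).

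Markers of gut-like differentiation had the lowest median of the lists, −0.43, with 8 of 28 tested members higher in collagen (5 with scaling by library size alone) and 1 higher in Matrigel, of which 5 and 0 were kept with each library left out. Lgals2, the gene of the gut lectin galectin-2, measured 2396, 2544 and 2614 CPM in Matrigel and 6256, 6045, 6492, 6588 and 7322 CPM in collagen (log2 fold change −1.38, SE 0.14, adjusted p = 1.91e-07). Every collagen library lay far above every Matrigel library. Anxa13, an annexin of intestinal epithelium, and Alpi, the intestinal alkaline phosphatase, were 1.73-fold and 2.93-fold higher in collagen (adjusted p = 0.0014 and 0.0052). Krt20, a keratin of mature gut epithelium, measured 781 to 956 CPM and 803 to 1087 CPM and was not called (adjusted p = 0.945).

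Mucins, trefoil factors and other secretory products moved in both directions, with 8 of 29 higher in Matrigel and 9 higher in collagen (7 and 6 kept with each library left out). Among those higher in collagen, Tff1, a trefoil factor of gastric surface cells, measured 3595, 4009.5 and 3982 CPM in Matrigel and 7162, 6253, 7009, 8304 and 10535 CPM in collagen (log2 fold change −1.02, SE 0.17, adjusted p = 1.73e-04), Gkn2, a gastrokine, measured 3273 to 3679 CPM and 6080.5 to 9237 CPM (log2 fold change −1.09, SE 0.26, adjusted p = 0.00709), and Muc5ac, the gel-forming mucin of gastric foveolar cells, 431 to 553 CPM and 702 to 1741 CPM (log2 fold change −1.20, SE 0.26, adjusted p = 0.00286). On the Matrigel side stood Dmbt1, a scavenger receptor-type glycoprotein of mucus, at 908, 996 and 969 CPM against 421, 490.1, 398, 365 and 361 CPM (log2 fold change 1.23, SE 0.17, adjusted p = 1.70e-05), and Tff3, the trefoil factor of intestinal goblet cells, at 1819 to 2392 CPM against 896 to 1433 CPM (log2 fold change 1.04, SE 0.27, adjusted p = 0.0133), a call that was lost without collagen replicates 1 to 3. Muc4, a membrane mucin, was 5.46-fold higher in Matrigel (adjusted p = 0.00155). Clca1, a secreted goblet cell protein, measured 3253 to 3923 CPM and 3394 to 4077 CPM (adjusted p = 0.8).

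Transport of ions and water changed member by member, with 6 genes higher in Matrigel and 8 higher in collagen of 40 tested (2 and 4 kept with each library left out). Slc4a4, the sodium bicarbonate cotransporter of ducts, measured 54.5 to 74.0 CPM in Matrigel and 13.4 to 25.1 CPM in collagen (log2 fold change 1.69, SE 0.18, adjusted p = 3.12e-07), and Kcnq1, a potassium channel of secretory epithelia, 18.1 to 32.7 CPM and 1.79 to 7.88 CPM (log2 fold change 2.66, SE 0.30, adjusted p = 8.27e-07). Higher in collagen were Slc26a6, an apical anion exchanger (4.36-fold, adjusted p = 2.59e-06), and the water channel Aqp8 (2.85-fold, adjusted p = 0.0169). Car2, a carbonic anhydrase of ducts, measured 573 to 801 CPM and 501 to 700.3 CPM and was not called (adjusted p = 0.534).

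Among junction and polarity genes 8 of 36 were higher in Matrigel and 1 higher in collagen (5 and 0 kept with each library left out). Epcam, the epithelial adhesion molecule, measured 155, 183 and 158 CPM in Matrigel and 45.9, 48.9, 45.5, 65.4 and 75.1 CPM in collagen, with collagen replicates 4 and 5 above the other 3 and still below Matrigel (log2 fold change 1.56, SE 0.18, adjusted p = 8.64e-07). Cldn23 was 2.67-fold higher in Matrigel and Cldn6, a claudin of embryonic epithelia, 2.70-fold higher (adjusted p = 1.96e-05 and 0.00662). Cldn18, a claudin of gastric epithelium, measured 620.0 to 681 CPM in Matrigel and 763 to 989.8 CPM in collagen and missed the threshold (adjusted p = 0.2). Of 11 keratins only Krt7, a keratin of ducts, was called, 1.56-fold higher in Matrigel (adjusted p = 0.00748).

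Transcription factors of endodermal and ductal lineages split into 6 higher in Matrigel and 8 higher in collagen of 37 tested, the latter 3 with scaling by library size alone, and 3 and 5 calls were kept with each library left out. Sox4, a factor of progenitors and of TGF-beta responses, measured 440.3, 382 and 419 CPM in Matrigel and 188, 163, 166, 148 and 136 CPM in collagen (log2 fold change 1.37, SE 0.13, adjusted p = 4.14e-08). Klf4, a factor of terminal epithelial differentiation that also counts as an immediate early gene, measured 207 to 211 CPM and 441 to 648 CPM (log2 fold change −1.35, SE 0.15, adjusted p = 5.54e-07), and Foxq1, a forkhead factor of gastric epithelium, 351 to 382 CPM and 671 to 807 CPM (log2 fold change −0.99, SE 0.15, adjusted p = 5.38e-05). Sox9, the ductal factor, measured 199 to 244 CPM and 130.3 to 255 CPM and was not called (adjusted p = 0.797). In the Wnt, Notch and Hedgehog list 7 of 23 were higher in Matrigel and 3 in collagen (2 and 3 kept with each library left out). The ligands Wnt7b and Wnt4 were 7.78-fold and 2.32-fold higher in Matrigel, while the receptor Fzd5 and Lgr4, a receptor for R-spondins, were 1.84-fold and 1.89-fold higher in collagen (adjusted p = 1.61e-04, 4.48e-06, 1.87e-04 and 0.00169). Of 26 genes of EGF ligands, receptors and MAP kinase feedback 2 were higher in Matrigel and 3 in collagen (1 and 2 kept with each library left out). This is 19.2% called, against 12.9% of all tested genes. Ccnd1, the gene of cyclin D1, measured 782 to 809 CPM in Matrigel and 520.0 to 564 CPM in collagen (log2 fold change 0.55, SE 0.14, adjusted p = 0.0136). Hbegf, an EGF receptor ligand, was 1.76-fold higher in collagen (adjusted p = 7.19e-04). Of 25 EMT factors and markers 6 were called, all higher in Matrigel, with 5 kept with each library left out, and they included the epithelial gene Epcam beside Cd44, the receptor kinase Axl (1.44-fold, adjusted p = 0.00465) and the neural adhesion molecule Ncam1 (2.19-fold, adjusted p = 6.92e-04).

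Core programs of growth held few calls. S phase genes had 1 called higher in Matrigel and 1 higher in collagen of 63, G2/M genes 1 and 0 of 70, and genes of Myc and ribosome biogenesis 3 and 0 of 61, each below the 12.9% of all tested genes. Mycn, the Myc family member, was 4.25-fold higher in Matrigel, at 15.3 to 18.1 CPM against 0.525 to 5.74 CPM (adjusted p = 3.56e-05). Rrm2, a subunit of ribonucleotide reductase, measured 125 to 135 CPM in Matrigel and 86.0 to 153 CPM in collagen (adjusted p = 0.853). Of 81 cytosolic ribosomal protein genes none passed the edgeR test, with 1 at an unadjusted p under 0.05 and 1 called by DESeq2. Of 36 proteasome genes 1 passed.

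Among genes of energy metabolism, nuclear respiratory chain subunits were called on the collagen side. Of 73 nuclear respiratory chain genes 12 (16.4%) were called, all higher in collagen, against 6.29% of all tested genes, with a median of −0.18. Of these calls 3 were kept with each library left out, 6 were made with scaling by library size alone and 5 without collagen replicates 4 and 5. The transcripts are short, with a median exon length of 1141 bases against 3281 over all tested genes. With the trend with transcript length removed 8 genes of the list were called, all higher in collagen, and the median was −0.13. Cyc1, the cytochrome c1 subunit, was 1.38-fold higher in collagen (adjusted p = 0.00236). None of the 10 mitochondrially encoded genes was called by edgeR, with 0 at an unadjusted p under 0.05, 0 called by DESeq2 and a median of 0.12, and the mitochondrial share of counts was 4.31 to 4.83% in Matrigel and 3.01 to 4.83% in collagen. For glycolysis and hypoxia 9 of 38 genes were higher in collagen (4 with scaling by library size alone) and 3 in Matrigel, of which 4 and 2 were kept with each library left out. The hypoxia-induced genes went both ways, as Car9, a carbonic anhydrase, was 2.63-fold higher in collagen and Adm, the peptide adrenomedullin, 3.42-fold higher in Matrigel (adjusted p = 1.36e-04 and 3.50e-05). Of 32 cholesterol and sterol-regulated genes 3 were called, all higher in collagen, and 0 with scaling by library size alone.

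Further genes stood among the largest changes outside these lists. Tnfrsf11b, the gene of osteoprotegerin, a decoy receptor for RANKL, measured 33.4, 41.9 and 35 CPM in Matrigel and 0.464, 2.88, 1.91, 2.24 and 1.05 CPM in collagen (log2 fold change 4.37, SE 0.40, adjusted p = 2.15e-08). Slfn2, a schlafen family member, was 10.1-fold higher, Pou2f2, the octamer factor Oct2, 9.65-fold higher, and Ivl, involucrin of the cornified envelope, 4.38-fold higher in Matrigel (adjusted p = 1.00e-06, 1.74e-08 and 1.87e-08). Prxl2a, a peroxiredoxin-like protein, had nearly equal levels in the Matrigel libraries, 536, 537 and 538 CPM, against 165 to 231 CPM in collagen (log2 fold change 1.45, SE 0.11, adjusted p = 1.49e-09). On the collagen side Cd302, a C-type lectin, measured 5.11, 10.5 and 12.8 CPM in Matrigel and 53.8, 52.7, 52.2, 61.8 and 49.4 CPM in collagen (log2 fold change −2.56, SE 0.22, adjusted p = 1.09e-08). Slurp1, a secreted Ly6 family protein, was 5.59-fold higher in collagen, S100g, the calcium-binding calbindin of gut epithelium, 4.75-fold higher, and Hao1, a peroxisomal oxidase, 3.76-fold higher (adjusted p = 1.95e-05, 9.42e-05 and 5.33e-05). In CPM rather than fold, the largest difference belonged to Clu on the Matrigel side, from 8120.0 to 13122 CPM in the means, and to Lgals2 on the collagen side, from 2518 to 6541 CPM.

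Levels in the other conditions of the study are given side by side, as comparisons among them would share these libraries. Ltf averaged 5.01 CPM in 2D cells, 1.49 in collagen at day 7 and 2.01 in the second-batch KC organoids in collagen, against 110.5 ± 12.7 (SD, n = 3) in Matrigel. Duox2 and Duoxa2 averaged 25.1 and 73.4 CPM in the collagen organoids of the second batch, above the 7.20 ± 3.37 and 16.5 ± 6.77 (SD, n = 5) of the first batch and below Matrigel. Cxcl5 averaged 406 CPM in 2D cells and 258 in the second batch. Ltf and Cxcl5 were thus highest in Matrigel among the 6 conditions.

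For other genes the place of Matrigel among the 6 conditions varied. Ccn2 averaged 127 CPM in 2D cells and Plat 132 CPM in collagen at day 7, both above the means of 73.7 and 109.5 in Matrigel. Egr1 averaged 66.2 CPM in 2D cells, 109.9 at day 7 and 331 in the second batch, so that Matrigel organoids had the lowest mean of the 6 conditions at 39.6. Fos gave the same picture, from 120.1 CPM in Matrigel to 1324 in the second batch. Cyp2c55 was not high in all collagen organoids of day 13, as the second batch averaged 15.1 CPM, near the 7.48 of Matrigel. With the 3 collagen libraries of the second batch in place of the first, Cyp2c55, Itga2, Itgb6, Lama3, Tff3, Adh1, Cyc1, Fabp1 and Nqo1 were no longer called, and matrix and batch cannot be told apart in that comparison. Lgals2 averaged 6070.4 CPM in the second batch and 1688 at day 7, and Gsta1 1254 and 535 CPM. The plot of levels by condition gives the range over libraries for 12 genes.

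**Figure D5:**
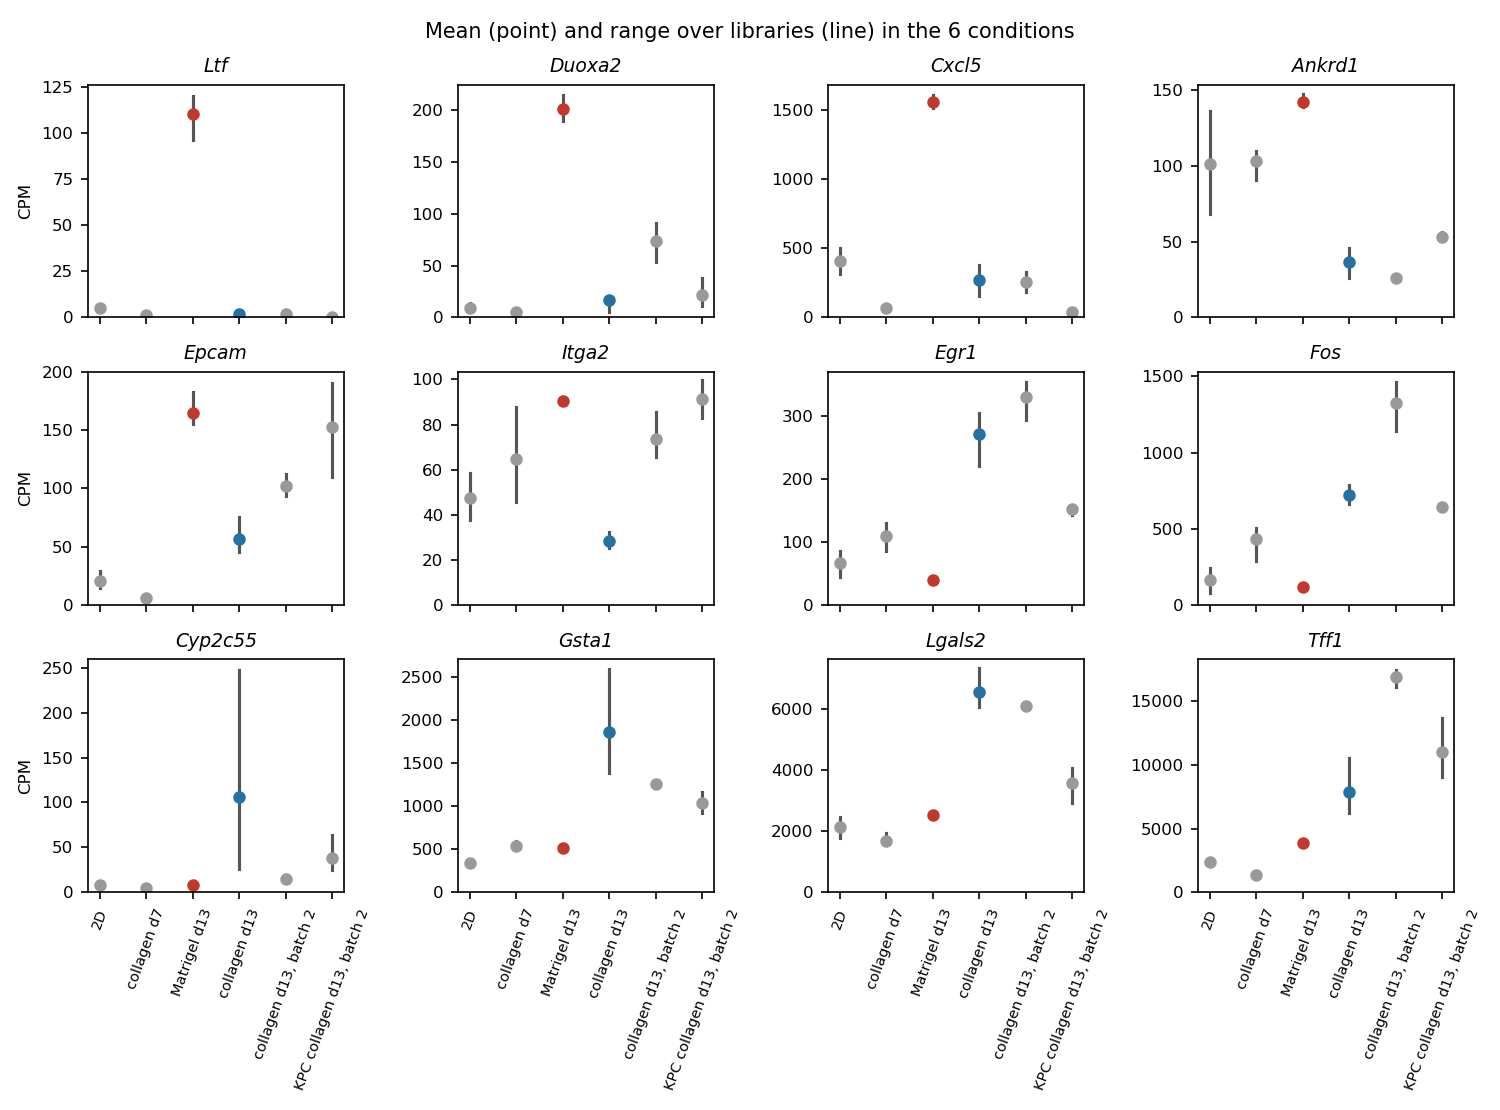
Points give the mean and lines the range over libraries, in CPM (y axis, starting at 0), of 12 genes in 6 conditions, with Matrigel organoids in red, first-batch collagen organoids of day 13 in blue and the other conditions in grey. Ltf and Cxcl5 stand out in Matrigel alone, while Lgals2 is high in both batches of KC collagen organoids of day 13 and Cyp2c55 in the first.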

How the data were processed

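RNA of 23 mouse libraries was sequenced from the 3′ end, and 8 libraries, 3 from Matrigel and 5 from collagen at day 13, were compared here by their labels. The authors deposited UMI counts per gene, not normalized, made with the Drop-seq pipeline after alignment to GRCm38 with GENCODE gene definitions, and counting by UMI removes PCR copies but leaves low genes at a few counts. From these counts one quasi-likelihood model of 6 conditions was fitted to all libraries in edgeR 4.0.16 (R 4.3.3) with TMM factors and filterByExpr, which kept 11144 of 27207 genes, and p-values were adjusted by Benjamini-Hochberg with a threshold of 0.1. The test was tried on simulated data first. CPM values use effective library sizes. Gene lengths and positions came from GENCODE on GRCm38, and promoters from RefSeq.

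Groups, gene lists and named genes were chosen with earlier results of these data known. Named are 6 markers, the 20 highest and 20 lowest log2 fold changes among called genes whose groups did not overlap and of which 1 reached 20 CPM, the 10 largest CPM differences each way, and up to 6 called and 3 uncalled members per list, of which the text gives a selection made after their values were seen. Of the members of 42 pathway and 7 cell type lists, 1289 were tested and 326 were too low. Some alleles, genes and 1 list are not reported here. Tried as alternatives were 18 settings, with DESeq2 1.42.0 among them, and 3 more chosen after seeing the data: collagen replicates 4 and 5 left out, collagen replicates 1 to 3 left out, and the trend with transcript length removed.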

Additional observations from a re-analysis of the deposited data

Results flagged for a closer look

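Of 137 genes described, 7 had 1 collagen library far from the other 4 by Dixon's test, and chance flags about 1 in 20 groups. Duoxa2 was lowest in collagen replicate 3 at 4.79 CPM, with the next library at 16.7 CPM. Il1a was lowest in the same replicate at 22.5 CPM, against 36.9 CPM in the next. Nox1 was highest in collagen replicate 4 at 2.69 CPM, against 0.959 CPM. Car9 and Mgst3 were highest in collagen replicate 5, at 97.2 and 1223 CPM, where the next libraries had 59.8 and 1046 CPM. Adh1 was highest in collagen replicate 2 at 50.8 CPM, against 31.6 CPM, and Por in collagen replicate 1 at 192 CPM, against 147 CPM. Each of the 6 called genes among them was still called when that library was left out, and the Matrigel libraries lay outside the collagen range for all of them.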

How the results depend on the processing

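Scaling by library size alone gave 954 calls, 300 of them higher in collagen. With the 3 collagen libraries of the second batch in place of the 5 of the first, 4265 genes were called, 2087 higher in Matrigel and 2178 in collagen, with 605 list members, and batch and matrix cannot be told apart there. Leaving out 1 library at a time gave 901 to 1427 calls, 467 to 755 higher in Matrigel and 434 to 672 higher in collagen. The lowest counts came without Matrigel replicate 1, and 437 genes were higher in collagen without Matrigel replicate 3. Without collagen replicates 1, 2 and 3, 488 were higher in Matrigel. DESeq2 called 1270 genes, and the fit of the 2 groups alone 1856. Replicate numbers were not taken to pair the samples. Same-numbered Matrigel and collagen libraries had correlations of 0.0055, −0.033 and −0.017 in their deviations from the group means. Differently numbered pairs had −0.073 to 0.065, and so few libraries cannot show that no pairing exists. With the replicate number as a block 1560 genes were called, 881 of them higher in Matrigel. Of the 137 genes described, Ctsb lost its call with scaling by library size alone and without the filter, Tff3 and Cd68 without collagen replicates 1 to 3, and 10 genes against the second batch. Egfl7 also lost its call under DESeq2, the block and 7 of the 8 fits that left out 1 library, and the other 136 kept their side of the test's threshold in these settings. When every library had to hold 10 counts, only 113 of the 137 genes were still tested, and these kept their side. Ltf, Lcn2, C3, Tnfrsf11b and Pou2f2 were among the genes that left the test there. Among genes not called, the log2 fold changes of Anxa3, B2m, Col4a1, Hspa5 and Krt20 crossed 0 when single libraries were left out. Cyba, Cldn18 and Klf6, not called, passed the test in 1 or more other settings, and Krt20, Por, Rrm2 and Sox9 against the second batch. Libraries of 1612870 to 2265047 counts limit what can be seen of genes below a few CPM.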

Other observations

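Collagen replicates 4 and 5 differed from replicates 1 to 3 in single genes beyond those described. Ces2a, a carboxylesterase, Mgll, a monoglyceride lipase, and Dsg2, a desmosomal cadherin, were higher in replicates 4 and 5 by 2.44, 1.36 and 1.54 in mean log2 CPM, and Pdxp, a phosphatase, and Ppp1r1b, a phosphatase inhibitor, were lower, by −1.43 and −1.28. These genes were picked for that split, so no test is given.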
